A study of Mus musculus with 37 samples.

Results

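Tbx5 transcripts were counted at least 2 times in 117 of 8565 cells, 1.37% (exact 95% binomial interval 1.13 to 1.63%, counting error only), and these 117 cells are described here. They were chosen by their own Tbx5 count. Each was set beside a cell of the same library with the nearest total count available and with 0 counts of Tbx5, Gata4 and Mef2c, drawn from 5930 such cells. The counts of these 3 genes and the total per cell made the choice, so they are given below as a description, and the 3 genes were left out of the tests of expression against these cells.

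Tbx5 is a transcription factor of the T-box family, named for its DNA-binding domain. In the embryo it is made in the developing heart, where it acts with Gata4 and other factors on genes of the contractile apparatus and of conduction, and in the forelimb bud, where it is needed for the limb to grow out. Together with Gata4 and Mef2c it forms the mixture known as GMT, which is used to turn fibroblasts into cells that resemble cardiomyocytes.

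The cells were mouse embryonic fibroblasts of the ICR strain, examined on day 7 after retroviral delivery of a pool of 48 factors. Expression was measured by Drop-seq, in which each cell's polyadenylated RNA is caught on a barcoded bead and counted by molecular tags. All 37 libraries derive from 1 biological replicate, as its technical replicates, and every cell was exposed to the whole pool. Of the 48 factors, 43 had a row in the count tables. No group of untreated cells enters the comparisons: both groups are cells of the same culture, grouped afterwards by what was counted in them. A cell with 0 counts of a factor may still carry it, a count does not tell a delivered transcript from the cell's own, and p-values measure only the spread between libraries of 1 culture.

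The tables held 8730 barcodes, of which 8565 remained after copies were removed. Technical replicates 4 and 6 shared 59 barcodes, the next pair 4, so they were joined and are called technical replicate 4, which leaves 36 libraries. A library held between 637680 and 7921171 counts from between 70 and 548 cells, and the median cell had 8553 counts from 3568 genes. By the start of the library names, 15 libraries with 3296 cells belong to a series named JD, 15 with 3767 cells to PZ47-PZ48 and 6 with 1502 cells to PZ58.

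The Tbx5 gene lies on chromosome 5 (build GRCm38, chr5:119832668-119885219, plus strand). Its 662 counts were spread over 447 cells, 5.22% of all. Exactly 1 count was found in 330 cells, 2 counts in 68, 3 in 31, and 4 to 12 in the remaining 18. The 117 cells held 332 of the 662 counts. They were found in 31 of the 36 libraries, with a median of 3 and at most 13 per library. By series they made up 1.76% (JD), 0.982% (PZ47-PZ48) and 1.46% (PZ58) of the cells, and by library at most 5.96%, in technical replicate 37.

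**Figure D1:**
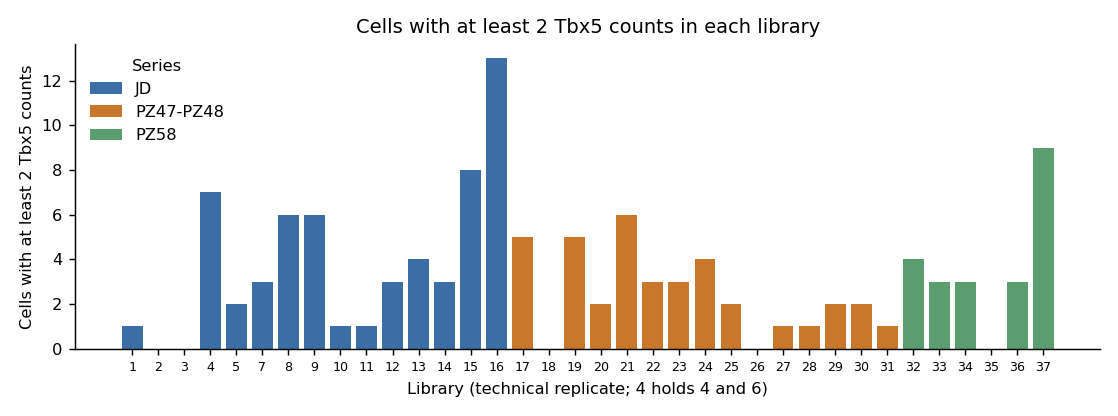
Number of cells with at least 2 Tbx5 counts in each of the 36 libraries, coloured by library-name series. The cells are spread over 31 libraries, with at most 13 in 1 library.

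A threshold on counts favours deep cells. The 117 cells had a median total of 25653 counts (1823 to 201571) from 6122 genes, against 12884 counts in the cells with exactly 1 Tbx5 count and 7384 in the cells with 0 counts of Tbx5, Gata4 and Mef2c. Relative to depth, the groups on both sides of the threshold were close: cells just inside it, with 2 counts, had a median of 89.7 Tbx5 CPM (counts scaled to 1000000 per cell or sum), and cells just outside it, with 1 count, 77.6. The comparisons below are therefore between cells of matched depth. Of 26 cells with at least 8 of 15 macrophage markers, which should lack Tbx5 of their own but met the same pool, 2 held a Tbx5 count (7.69%, exact 95% interval 0.946 to 25.1%), and both held at least 2. Their median depth was 6718 counts. The share of cells with any Tbx5 count, 5.22%, lies inside this interval, so free RNA in the droplets as a source of Tbx5 counts cannot be told apart from expression by these shares.

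Most of the 117 cells also held another factor of the cardiac mixture. Mef2c was counted in 62 of them (53%) and Gata4 in 11 (9.40%). Both were counted in 7 cells, and neither in 51. Fibroblast markers were found in both groups. Among the 111 cells that entered the paired comparison, 110 held Col1a1, which encodes a chain of type I collagen, and 111 Vim, an intermediate filament of mesenchymal cells, against 111 and 111 of the matched cells. Prrx1, a homeobox gene of limb and body-wall mesenchyme, was counted in 98 against 104. Of single markers of other cell types, Ptprc of blood cells was counted in 4 against 0, Pecam1 of endothelium in 3 against 0, and Sox10 of neural crest and glia in 1 against 0. Of mesothelial markers, Upk3b was counted in 10 against 7, Msln in 20 against 9 and Krt18 in 45 against 30, and the summed level of that list, given below, was higher in the cells with Tbx5 in 18 of 25 libraries. Myog, the muscle regulator myogenin, was counted in 6 against 2. The 25 fibroblast markers of the list used here were all tested, and 0 passed in either direction by edgeR's quasi-likelihood test (0.683% of all genes did), with 5 at an unadjusted p under 0.05 and 0 called by DESeq2. Their summed level was 29330 ± 4257 CPM in the cells with Tbx5 and 29830 ± 5834 CPM in the matched cells (mean ± SD, n = 25 libraries). Macrophage markers, 8 of 15 tested, summed to 77.4 CPM (0 to 1095) against 29.9 CPM (0 to 87.9), with 0 called, 3 at an unadjusted p under 0.05 and 79.6% of the counts in 3 cells. The 1095 CPM was that of technical replicate 9, without which the means were 35.0 and 30.2 CPM (n = 24 libraries). Their part in the differences below was not tested.

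The first comparison asks which other transcripts differ between cells with at least 2 Tbx5 counts and cells with 0 counts of Tbx5, Gata4 and Mef2c. It rested on 111 pairs in the 25 libraries with at least 2 of the cells, with median totals of 25690 and 25535 counts. In 9 of the pairs the totals were over 25% apart, and the summed totals were 3869073 and 3427353 counts. The other 6 of the 117 were the only such cell of their library and were left out. Genes with at least 20 counts over all sums were tested. Counts were summed per library and group, so more cells with a transcript and more transcript per cell cannot be told apart in the test, and the number of cells with a count is given beside it. Of 12448 genes tested, 85 differed at an adjusted p under 0.05 (0.683%), 62 higher (0.498%) and 23 lower (0.185%) in the cells with Tbx5. The higher genes differed in how many cells they came from. In 22 of the 62, at least 50% of the counts came from 1 cell, and 32 were counted in fewer than 20 of the 111 cells. By contrast, 23 were counted in at least 40 cells. Of the 23 lower genes, 21 were counted in at least 20 matched cells.

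**Figure D2:**
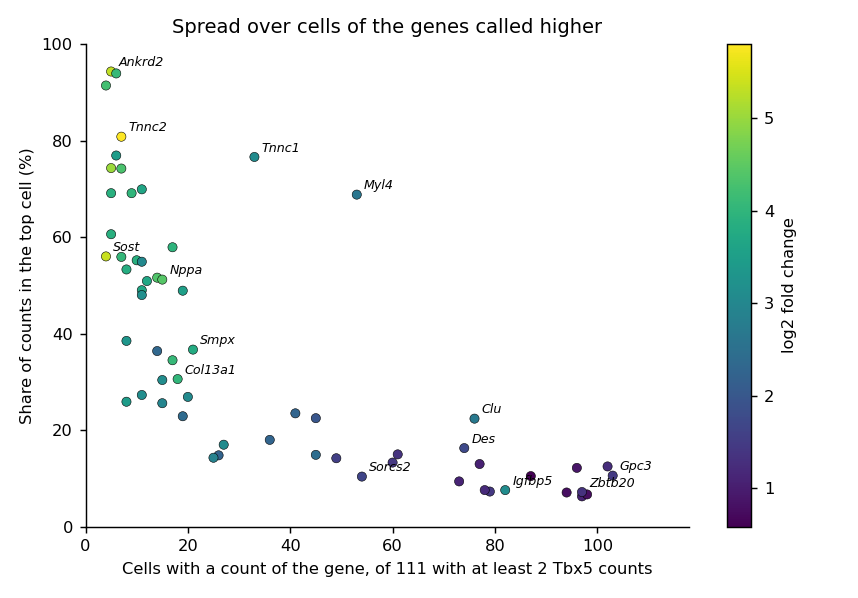
Each point is 1 of the 62 genes higher in cells with at least 2 Tbx5 counts, placed by the number of these cells with a count (horizontal axis) and by the percent of its counts that came from 1 cell (vertical axis); colour gives the fitted log2 fold change, which depends on the prior count where the matched cells held 0 counts. Genes found in at least 40 cells, 23 in number, sit towards the lower right, and the 22 genes with 50% or more of their counts in 1 cell sit at the top left.

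Igfbp5, which encodes a secreted protein that binds insulin-like growth factors (chr1:72857932-72874884, minus strand), was higher in many cells and by a large fold. It lies outside the 12 highest genes here and, like Sorcs2 and Clu below, is named through the second comparison, so its values in the first were seen before it was chosen. Its level in the 25 libraries ran from 0 to 4257 CPM (median 549) in the cells with Tbx5, and from 0 to 666 CPM (median 28.9) in the matched cells. The ranges overlapped at the low end, but within libraries the cells with Tbx5 were higher in 20 and lower in 4. This amounts to a log2 fold change of 3.10 ± 0.45 (SE) at adjusted p = 7.08e-05 (quasi-likelihood test of edgeR). The SE here and below is approximate, derived as the absolute log2 fold change over the square root of the test's F statistic. A count was found in 82 of 111 cells against 53, and the highest cell held 7.6% of the 2934 counts. The level was higher in each series: the JD libraries had 503 against 193 CPM, the PZ47-PZ48 libraries 804 against 40.4 CPM and the PZ58 libraries 1723 against 74.9 CPM.

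Other broadly spread genes were chosen for naming after their values were seen. Gpc3 encodes glypican 3, a heparan sulphate proteoglycan of the cell surface. It ran from 109.5 to 1792 CPM (median 632) in the cells with Tbx5 and from 0 to 1915 CPM (median 227) in the matched cells, with 20 libraries higher and 5 lower (log2 fold change 1.46 ± 0.30, edgeR adjusted p = 0.00433). The ranges overlapped almost entirely, and the difference lay in the middle of the distribution. Zbtb20, a zinc finger repressor, ran from 0 to 247.5 CPM (median 125) against 0 to 158 CPM (median 50.8). It was higher in 21 libraries and lower in 4 (1.34 ± 0.20, edgeR adjusted p = 0.000107). Daam1, a formin-family protein that acts on actin downstream of Wnt and Dishevelled, was higher in 22 libraries and lower in 3, with medians of 76.9 and 33.9 CPM (1.20 ± 0.22, edgeR adjusted p = 0.00111). Cthrc1, a secreted protein of collagen-producing fibroblasts, was higher in 21 and lower in 4, with medians of 739 and 287 CPM (1.25 ± 0.25, edgeR adjusted p = 0.00293). Gpc3 and Zbtb20 overlap other annotated genes (Gm14582 and Gm15713 among them), and the strand setting of the counting is not given in the sources used here, so reads of both cannot be told apart.

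Des, Sorcs2 and Clu were also spread over many cells. Des encodes desmin, the intermediate filament of muscle. It ran from 0 to 2093 CPM (median 337) in the cells with Tbx5 and from 0 to 1528 CPM (median 87.8) in the matched cells. The ranges overlapped, with 19 libraries higher and 6 lower, and a count was found in 74 cells against 64 (log2 fold change 1.73 ± 0.37, edgeR adjusted p = 0.00871). Sorcs2, a receptor of the sortilin family, had medians of 32.3 and 5.77 CPM and was higher in 20 libraries and lower in 2 (1.65 ± 0.33, edgeR adjusted p = 0.00392). Its highest library value was 92.3 CPM against 28.4. Clu, which encodes the secreted chaperone clusterin, had medians of 240.5 and 46.2 CPM and was higher in 19 libraries and lower in 6 (2.70 ± 0.55, edgeR adjusted p = 0.00433). A single cell held 22.4% of the Clu counts in the cells with Tbx5. Des overlaps Gm15179 and Sorcs2 overlaps Psapl1, with the same limit on strand.

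**Figure D3:**
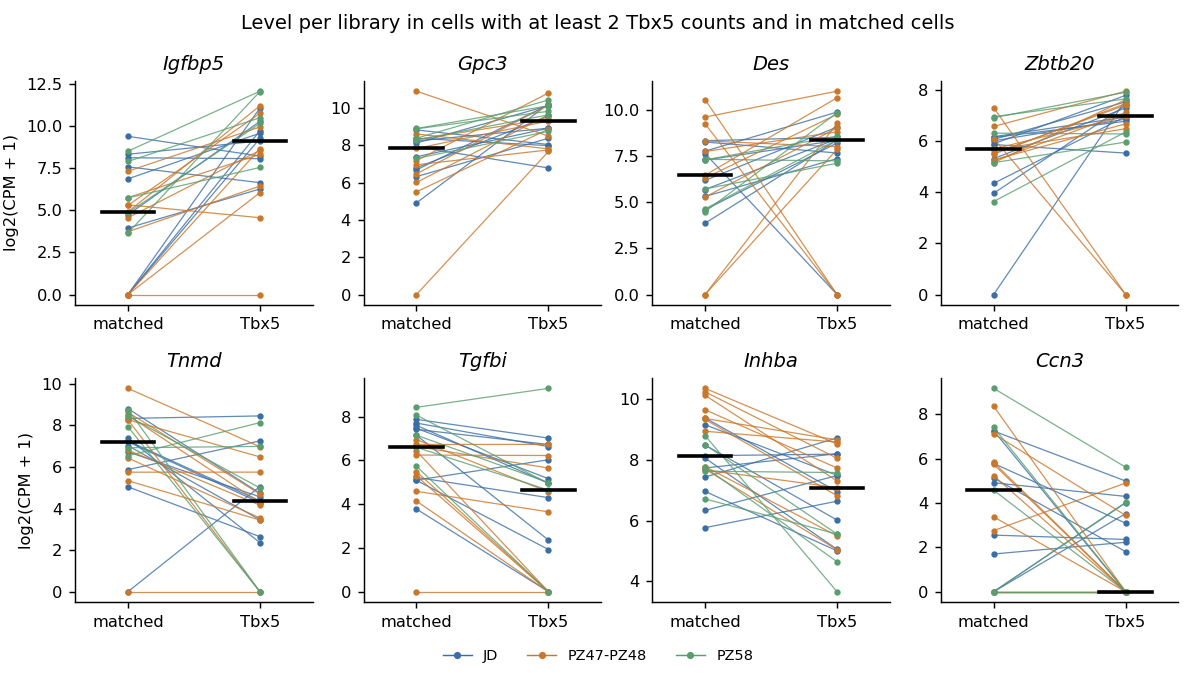
Level of 8 genes in each of the 25 libraries, as log2(CPM + 1), in cells with at least 2 Tbx5 counts and in matched cells with 0 counts of Tbx5, Gata4 and Mef2c; lines join the values of 1 library, colours give the series and black bars the medians. Igfbp5, Gpc3, Des and Zbtb20 were higher in most libraries and Tnmd, Tgfbi, Inhba and Ccn3 lower, with overlapping ranges in each.

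Col13a1, which encodes a collagen anchored in the membrane, was rare in the matched cells. It was counted 72 times in 18 of the cells with Tbx5 and 1 time in 1 matched cell, a ratio per total count of 63.8 (exact 95% counting interval 11.1 to 2554). It was higher in 14 libraries and lower in 0, and the remaining libraries held no count in either group (edgeR adjusted p = 6.86e-05). Car2, carbonic anhydrase 2, had 133 counts in 17 cells against 3 counts in 3 cells, a ratio of 39.3 (13.1 to 193). A single cell held 57.9% of the Car2 counts, and without technical replicate 13 its fitted log2 fold change went from 3.96 to 3.12, still past the threshold.

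Members of a list of cardiomyocyte markers made up a second group of higher genes, and the list's counts came mostly from few cells. This list overlaps the skeletal muscle list below, as Ttn is in both, so a higher member does not by itself tell heart from skeletal muscle. Of 30 cardiomyocyte markers, 23 were tested: 9 were higher (Actc1, Actn2, Csrp3, Myh6, Myl4, Nppa, Smpx, Tnnc1 and Ttn) and 0 lower, beside 0.498% of all genes higher. The median log2 fold change of the 23 was 2.37, against 0.02 for all 12448 genes tested. Of the 23, 10 had fewer than 10 counts in the matched cells. Such genes passed the minimum of 20 counts mainly through the cells with Tbx5, so the count and median describe these genes and are no evidence for the list. Of the 13 with at least 10 counts in the matched cells, 4 were higher, beside 32 of 11976 among all genes with as many. The summed level of the list was 2297 ± 3063 CPM (287 to 13510) in the cells with Tbx5 and 829 ± 562 CPM (365 to 2357) in the matched cells (mean ± SD, n = 25 libraries), higher in 21 of 25. The highest value, 13510 CPM, was that of technical replicate 4. In all, 3 cells held 50.6% of the list's counts, and the median cell had 703 CPM against 503 CPM. Both the median cell and the sum were thus above the matched cells, by different amounts.

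Nppa, the gene of atrial natriuretic peptide and a known target of Tbx5 in the heart (chr4:148000722-148002079, plus strand), shows how narrow these differences were. Its median library was at 0 CPM in both groups, and the highest library had 855 CPM in the cells with Tbx5 against 11.2 CPM in the matched cells. Only 10 of the 25 libraries were higher in the cells with Tbx5, and 2 were lower. It was counted 293 times in 15 cells against 5 times in 5 cells, and 1 cell held 150 of the 293 counts, 51.2% (log2 fold change 4.43 ± 0.69, edgeR adjusted p = 0.000409). Without technical replicate 19, 8 or 15 the log2 fold change was 3.36, 3.58 or 5.06. The antisense gene Gm13054 overlaps Nppa and had 281 counts against 5, and without strand the reads of the pair cannot be told apart.

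The DNA before the start of Nppa and of Igfbp5 is shown here because these genes had, respectively, a large difference from few cells and a large difference from many. The windows hold the 250 bases before the start on the gene's own strand, 5′ to 3′, from RefSeq on GRCm38.p6 (Nppa at chr4:148000472-148000721, plus strand, and Igfbp5 at chr1:72874866-72875115, minus strand). Capitals mark a match to the T-box element AGGTGTGA or its reverse complement TCACACCT.
Nppa: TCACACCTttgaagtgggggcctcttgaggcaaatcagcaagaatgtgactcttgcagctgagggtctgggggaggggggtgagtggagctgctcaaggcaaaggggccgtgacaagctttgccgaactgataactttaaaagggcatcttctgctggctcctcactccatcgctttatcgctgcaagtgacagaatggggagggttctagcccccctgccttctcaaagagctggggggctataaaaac
Igfbp5: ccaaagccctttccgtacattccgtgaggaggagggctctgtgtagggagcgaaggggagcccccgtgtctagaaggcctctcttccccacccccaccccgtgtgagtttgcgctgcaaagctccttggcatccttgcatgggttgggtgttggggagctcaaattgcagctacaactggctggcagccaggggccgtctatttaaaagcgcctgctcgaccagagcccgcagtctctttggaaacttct
In Nppa the match lies at bases 250 to 243 before the start, and the Igfbp5 window holds none. The shares were counted over the whole RefSeq windows of 300 bases, which reach from 250 before to 50 after the start. Of all 32851 windows 419 held a match (1.28%), and among 9536 tested genes with a window 96 did (1.01%). Of 44 higher genes with a window 2 held a match, Aldh1a1 and Nppa (4.55%), and of 14 lower genes 0. A match is a description of the letters in this window and no evidence of binding.

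Smpx, a small muscle protein of the costamere, was spread over more cells than Nppa. It was counted in 21 cells against 5, with library values from 0 to 203 CPM (median 9.23) against 0 to 11.5 CPM (median 0), higher in 15 libraries and lower in 2 (3.77 ± 0.49, edgeR adjusted p = 6.8e-05). Ttn, which encodes the giant sarcomere protein titin, was counted in 19 cells against 10 (3.52 ± 0.54, edgeR adjusted p = 0.000249), with 48.9% of counts in 1 cell. Actc1, cardiac alpha-actin, was counted in 17 cells against 13 (4.09 ± 0.71, edgeR adjusted p = 0.00111). Its fold change was 3.43, 3.49 or 4.92 without technical replicate 4, 19 or 37. Myh6, cardiac alpha-myosin heavy chain, had 140 counts in 5 cells and 0 in the matched cells, at least 41.3-fold higher against a floor of 3 counts over the matched group, but 74.3% of its counts came from 1 cell. Without technical replicate 19 its fitted log2 fold change went from 5.02 to 3.38, still past the threshold (edgeR adjusted p = 0.0336). Actn2, sarcomeric alpha-actinin, had 60 counts in 8 cells against 0, at least 17.7-fold higher, and lost its call without technical replicate 4 (edgeR adjusted p = 0.099) or 8 (0.052). Tnnt2, cardiac troponin T, was counted in 76 cells against 61 and did not pass (1.83 ± 0.50, edgeR adjusted p = 0.077).

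The counts of the skeletal muscle list also came mostly from few cells, though Des, described above, was spread over many. Of 27 markers, 22 were tested, of which 9 were higher (Des, Mybph, Myh8, Myl1, Mymk, Tnnc2, Tnni2, Tnnt3 and Ttn) and 0 lower, beside 0.498% of all genes higher. Of the 22, 14 had fewer than 10 counts in the matched cells, with the limit given for the cardiomyocyte list. Of the 8 with at least 10 counts in the matched cells, 4 were higher, beside 32 of 11976 among all genes with as many. In all, 3 cells held 61.4% of the list's counts. Tnnc2, fast skeletal troponin C, had 489 counts in 7 cells against 2 in 2 cells, a ratio of 217 (exact 95% counting interval 59.6 to 1793), with 80.8% of its counts in 1 cell. It overlaps Ube2c, and without technical replicate 4 its fitted log2 fold change went from 5.81 to 3.73. Mymk, the fusion protein myomaker, had 146 counts in 11 cells against 4 in 4 cells, and lost its call without technical replicate 4 (edgeR adjusted p = 0.059), as did Myl1, a fast myosin light chain (0.063).

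The calls in these muscle lists depended on the test and on the matched cells. DESeq2's Wald test called 0 of the 23 cardiomyocyte genes and 1 of the 22 skeletal muscle genes, where edgeR called 9 and 9, and over all genes it gave 29 higher and 35 lower, of which 34 were among the 85 edgeR genes. When the matched cells had 0 Tbx5 counts but any number of Gata4 and Mef2c counts, edgeR called 0 genes of either list, beside 12 of 12546 genes in all. Without the cells that held a count of Myod1, Myog, Myh3 or Myocd, which drive or mark muscle, 84 pairs remained. There 34 of 11698 genes were called and 0 of either list. At such shares a count of 0 in lists of this size is near the background. This setting removes cells by muscle transcripts, and Myog and Myh3 are members of the skeletal muscle list, so the loss of muscle calls is in part fixed by the choice of cells. The median log2 fold change was 0.57 over the 13 cardiomyocyte genes still tested and 0.20 over the 6 skeletal muscle genes, against 0.01 over all genes. With matched cells of any Gata4 and Mef2c count the medians were 0.98 over 24 and 1.26 over 23 genes. Of these, 22 and 20 were above 0, and 11 and 11 had an unadjusted p under 0.05 by edgeR.

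Outside muscle, 3 genes of the mesothelium list were higher and 0 lower among 16 tested of 19, beside 0.498% of all genes higher. Mesothelium is the epithelium that covers the heart and lines the body cavities. Msln, mesothelin, was counted 242 times in 20 cells against 19 times in 9 cells, and reached 622 CPM in 1 library against a highest value of 67.9 CPM in the matched cells (3.07 ± 0.44, edgeR adjusted p = 0.000112, 13 libraries higher and 3 lower). Krt18, a keratin of simple epithelia, ran from 0 to 4068 CPM (median 47.7) against 0 to 469 CPM (median 12.7), with 17 libraries higher and 6 lower (2.42 ± 0.53, edgeR adjusted p = 0.0109). Aldh1a1, a retinaldehyde dehydrogenase, had an adjusted p of 0.0475 by edgeR, which rose to 0.05 or above without any 1 of 13 of the 25 libraries, 8 and 19 most (0.2 and 0.149). Of the 16 genes 15 were above 0, with a median log2 fold change of 1.23, against 6673 of 12448 and 0.02 over all genes. Upk3b, a uroplakin, was at 1.07 (adjusted p = 0.81) by edgeR, and Wt1, the 1 member below 0, at −0.84 (adjusted p = 0.92). The list's summed level was 969 ± 1109 CPM against 302 ± 183 CPM (n = 25), higher in 18 libraries. DESeq2 called 0 of the 16, and edgeR gave 7 of them an unadjusted p under 0.05. Of the 16, 4 had fewer than 10 counts in the matched cells, and the 3 called genes were among the other 12. Among all genes with at least 10 such counts, 32 of 11976 were higher. The edgeR count was 0 with matched cells of any Gata4 and Mef2c count, with cells matched on the detection of both, at 3 or more Tbx5 counts, without cells with other factors, and in the JD or PZ58 libraries alone. With matched cells of any Gata4 and Mef2c count 12 of 17 genes were above 0, with a median log2 fold change of 0.28. Without cells with muscle regulators 15 of 16 were above 0, with a median of 1.24 and 3 called.

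**Figure D4:**
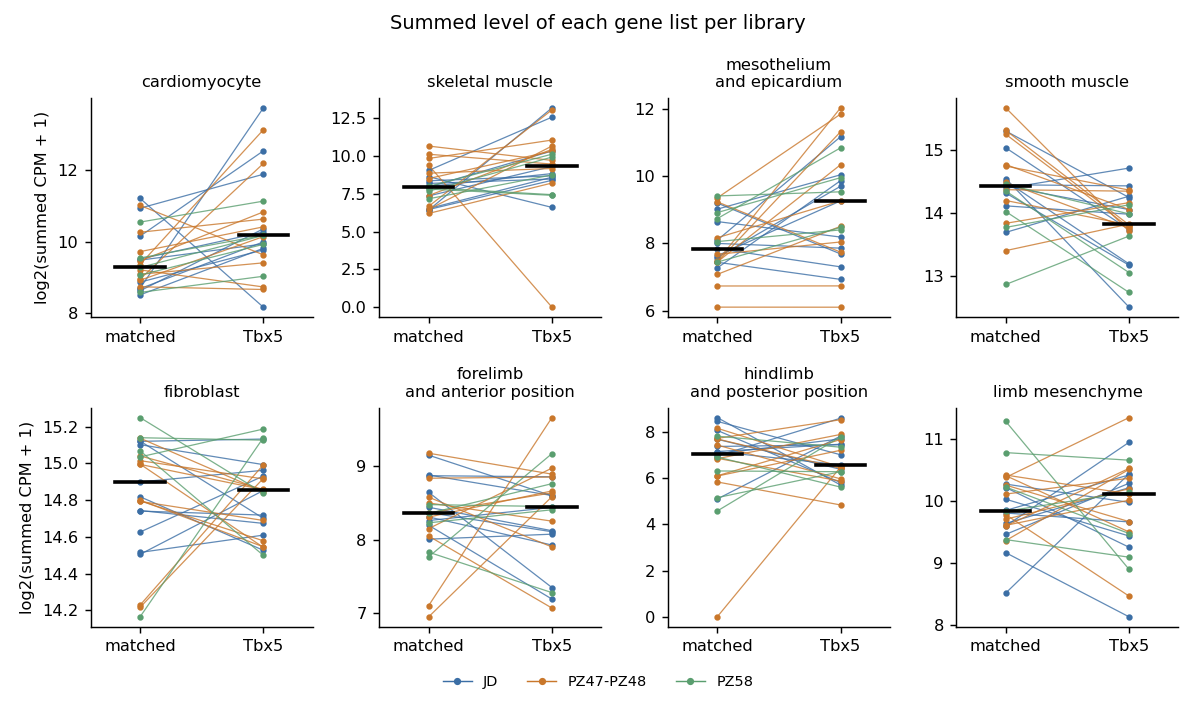
Summed level of 8 gene lists in each of the 25 libraries, as log2(summed CPM + 1), in cells with at least 2 Tbx5 counts and in the matched cells. Muscle and mesothelium sums were higher in most libraries, with the cardiomyocyte sum higher in 21 of 25, the smooth muscle sum was higher in 6 of 25, and fibroblast and limb sums overlapped.

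The genes lower in cells with Tbx5 were, with 2 exceptions, counted in at least 20 matched cells. Tnmd encodes tenomodulin, a membrane protein of tendon (chrX:133850980-133865577, plus strand). Its level ran from 0 to 349 CPM (median 19.6) in the cells with Tbx5 and from 0 to 875 CPM (median 146) in the matched cells. Cells with Tbx5 were lower in 18 libraries and higher in 6, with a count in 39 cells against 64 (log2 fold change −2.22 ± 0.34, edgeR adjusted p = 0.000131). Ccn3, a matricellular protein, had medians of 0 and 22.9 CPM and was lower in 15 libraries and higher in 5 (−2.46 ± 0.46, edgeR adjusted p = 0.00193). Col2a1, the collagen of cartilage, was lower in 14 libraries and higher in 6 (−2.33 ± 0.50, edgeR adjusted p = 0.00923). In the PZ58 series the summed Col2a1 level was 22.0 CPM against 22.6, so the difference lay in the other 2 series. Of 15 chondrocyte markers 10 were tested, and Col2a1 was the 1 lower gene, beside 0.185% of all genes lower and 0.498% higher. Acan, the proteoglycan aggrecan of cartilage, was the 1 higher gene, with 87 counts in 10 cells against 0, at least 25.7-fold higher, and 55.2% of its counts in 1 cell. The list's median log2 fold change was −0.09, with 4 genes at an unadjusted p under 0.05 by edgeR and 0 called by DESeq2.

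Tgfbi, Inhba and Lox were lower by smaller folds. Tgfbi, a matrix protein induced by TGF-beta, ran from 0 to 628 CPM (median 24.1) against 0 to 344 CPM (median 96.1), and was lower in 21 libraries and higher in 3 (−1.59 ± 0.27, edgeR adjusted p = 0.000409). It was the 1 of 15 BMP and TGF-beta targets to pass, beside 0.683% of all genes, and the list's median log2 fold change was −0.27. Inhba, which encodes the activin A subunit, ran from 11.6 to 423 CPM (median 135.5) against 53.6 to 1317 CPM (median 282), lower in 20 libraries and higher in 5 (−1.28 ± 0.25, edgeR adjusted p = 0.00292). Lox, lysyl oxidase, which crosslinks collagen, was chosen after its values were seen: it was counted in 107 cells against 111 and was lower in 22 libraries and higher in 3 (−0.69 ± 0.15, edgeR adjusted p = 0.0116). Lox was thus found in most cells of each group, and Inhba in every library of both groups. The summed level of each was lower in the cells with Tbx5 in most libraries.

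All 20 smooth muscle genes were tested. Des was higher, and Myh11, smooth muscle myosin heavy chain, and Tpm2, beta-tropomyosin, were lower, beside 0.498% of all genes higher and 0.185% lower. The list's median log2 fold change was −0.52 and its summed level 15330 ± 4991 CPM (5839 to 26790) against 23740 ± 10320 CPM (7492 to 51760), with the cells with Tbx5 higher in 6 of 25 libraries. Myh11 was at −1.95 ± 0.44 (edgeR adjusted p = 0.0122), lower in 17 libraries and higher in 7. Tpm2 was at −0.65 ± 0.16 (edgeR adjusted p = 0.0408), lower in 21 libraries and higher in 4. Its call was lost without any 1 of 17 of the 25 libraries, with adjusted p up to 0.11 without technical replicate 13. Acta2 and Tagln, actin and transgelin of smooth muscle and myofibroblasts, were at −0.85 and −0.92 and did not pass (edgeR adjusted p = 0.079 and 0.059). DESeq2 called 7 of the 20 genes, 6 of them lower. The 3 edgeR calls became 6 without technical replicate 14 or 34, 5 without 8, 9, 23 or 37, and 12 with a minimum of 1 count. They became 0 without the deepest cells, without cells with muscle regulators, with matched cells of any Gata4 and Mef2c count, with cells matched on the detection of both, and in the PZ47-PZ48 libraries alone. The fold changes did not all shrink with the calls. With matched cells of any Gata4 and Mef2c count the list's median log2 fold change was −0.63. There 16 of the 20 genes had an unadjusted p under 0.05 by edgeR, against 12 in the first comparison. Without cells with muscle regulators the median was −0.19, with 6 such genes.

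Genes of limb position and limb mesenchyme, the other setting in which Tbx5 acts, were measured in 3 lists, with 0 called by edgeR. As 0.683% of all genes were called, a count of 0 in lists of this size is near the background and is no result about these genes. Of 14 forelimb and anterior genes 13 were tested, with a median log2 fold change of 0.05. Of 16 hindlimb and posterior genes 9 were tested, with a median of −0.36, and of 15 limb mesenchyme genes 10, with a median of −0.06. At an unadjusted p under 0.05 there were 0, 2 and 3 of these genes, and DESeq2 called 0 in each list. The summed levels were higher in 11, 12 and 12 of 25 libraries. Fgf10, the growth factor that Tbx5 switches on in the forelimb bud, was at −0.52 ± 0.30 (adjusted p = 0.80 by edgeR). Tbx4, the hindlimb relative of Tbx5, had 21 counts in 11 cells against 2 in 2 cells and did not pass (adjusted p = 0.41 by edgeR). Prrx1 was at −0.44 ± 0.16 (adjusted p = 0.35 by edgeR).

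Among 28 genes reported downstream of Tbx5 in other systems, 21 were tested, and 3 were higher and 0 lower: Nppa, Myh6 and Actc1, described above. Of the 21, 6 had fewer than 10 counts in the matched cells and were tested mainly through the cells with Tbx5. Of the other 15, 1 was higher, beside 32 of 11976 among all genes with at least 10 such counts. Beside the 0.498% of all genes that were higher, the count and the median log2 fold change of 0.48 are a description only. The summed level was 1564 CPM against 1234 CPM, higher in 16 of 25 libraries. Gja5, connexin 40 of the conduction system, had 43 counts against 6 (2.13 ± 0.73, edgeR adjusted p = 0.28), and passed without technical replicate 15 (2.91, edgeR adjusted p = 0.026). Atp2a2, the calcium pump of the sarcoplasmic reticulum, was at 0.30 ± 0.15 (edgeR adjusted p = 0.67), and Nppb, the gene of brain natriuretic peptide beside Nppa, had 9 counts against 12. Id2, Cdk6 and Osr1 were at 0.15, 0.58 and 0.73 and did not pass. DESeq2 called 0 of the 21, and 10 had an unadjusted p under 0.05 by edgeR. The lists for S phase and for G2 and M phase, of 20 and 24 genes tested, had 0 genes called, beside 0.683% of all genes. For lists of this size that count is near the background and is no result about these genes. At an unadjusted p under 0.05 by edgeR there were 0 in each, against 910 of all 12448 genes. Their median log2 fold changes were −0.03 and 0.10.

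Mef2c and Gata4 were counted in 62 and 11 of the 117 cells and, by the choice of cells, in none of the matched ones. A second comparison took only cells with Tbx5 and 0 counts of both. It rested on 38 pairs in 12 libraries, with median totals of 23145 and 23469.5 counts. Of 10007 genes tested 15 differed (0.15%), 10 higher (0.0999%) and 5 lower (0.05%) by edgeR. These cells are part of those in the first comparison, and their matched cells were drawn from the same cells. A gene called in both is therefore no independent repeat. Igfbp5 was higher, with 1056 counts in 29 cells against 226 in 21, in 10 libraries higher and 1 lower (2.29 ± 0.43, edgeR adjusted p = 0.00494). Sorcs2 was higher in 10 libraries and lower in 0, with 75 counts in 21 cells against 11 in 10 (2.53 ± 0.50, edgeR adjusted p = 0.0107). Des had 630 counts against 58 (2.55 ± 0.47, edgeR adjusted p = 0.00444), though 42.2% came from 1 cell. Wnt4, a secreted Wnt ligand, had 72 counts in 9 cells against 4 in 2 cells, higher in 8 libraries and lower in 0 (3.60 ± 0.67, edgeR adjusted p = 0.00494). Clu was higher in 10 libraries and lower in 2 (2.44 ± 0.54, edgeR adjusted p = 0.0396), and its call was lost in 6 of 8 alternatives. Those of Igfbp5 and Wnt4 were lost in 2 of 8 and those of Sorcs2 and Des in 3 of 8.

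Other genes of this comparison came from few cells. Car2, Col10a1, F13a1 and Sost had 0 counts in the matched cells and were at least 28.7-fold, 41.2-fold, 14.3-fold and 29.0-fold higher against the floor of 3 counts, in 5, 4, 3 and 1 cells. Against a second set of matched cells Col10a1 was at 0.96 and did not pass, and F13a1 lost its call in 3 of 5 alternatives. Col10a1 is the collagen of hypertrophic cartilage and Sost encodes the Wnt antagonist sclerostin. Cx3cr1, a chemokine receptor of macrophages, was at least 53.1-fold lower, with all 149 counts in 1 matched cell.

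Lower genes with broader spread were Tnmd, with 41 counts in 10 cells against 253 in 19 (−2.84 ± 0.48, edgeR adjusted p = 0.00275), and Pid1, with 18 counts in 11 cells against 116 in 23 (−2.75 ± 0.48, edgeR adjusted p = 0.00277). Ccn3 had 7 counts against 112 (−3.47 ± 0.66, edgeR adjusted p = 0.00615), a call lost in 6 of 8 alternatives. Lum, the collagen-binding proteoglycan lumican, had 16 against 155 (−2.78 ± 0.64, edgeR adjusted p = 0.0499), and its call was lost in all 8 alternatives run. Tnmd and Pid1 each lost theirs in 2 of 8, without the deepest cells and without cells with muscle regulators. In these cells edgeR called 0 of 13 cardiomyocyte genes tested and 0 of 14 genes downstream of Tbx5, with 7 and 2 of them at an unadjusted p under 0.05. As 0.15% of all genes were called, a count of 0 here is near the background and is no result about these genes. Of the 13, 12 were above 0, with a median log2 fold change of 1.01, though 6 had fewer than 10 counts in the matched cells. Of the 14, 7 were above 0. The cardiomyocyte list's summed level was 1320 ± 596 CPM against 751 ± 394 CPM (mean ± SD, n = 12 libraries), higher in 12 of 12. In all, 3 cells held 43.4% of its counts. Nppa had 106 counts against 3, of which 97.2% came from 1 cell, and did not pass (edgeR adjusted p = 0.61). In simulated counts with known changes, all in genes with at least 100 counts, this comparison found 23 of 100 genes changed 2-fold and 98 of 100 changed 4-fold, where the first found 69 and 100.

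A further setting, chosen after seeing the data, matched each cell with Tbx5 to a cell with 0 Tbx5 counts of the same library and of the same detection of Mef2c and of Gata4 (106 pairs). It called 22 genes, 17 higher and 5 lower, of which 17 were among the 85. Igfbp5 stayed higher (2.27, edgeR adjusted p = 0.0285), as did Gpc3 (1.38), Sorcs2 (1.79), Daam1 and Cthrc1. Ccn3 (−2.09) and Tgfbi (−1.50) stayed lower. Of the cardiomyocyte list 1 gene was called, and of the skeletal muscle list 0, beside 22 of 12390 genes in all. A count of 0 in a list of this size is near that share and is no result about the list. With 0 Tbx5 counts as the only demand on the matched cells, 12 genes were called, with Igfbp5 (3.03, edgeR adjusted p = 0.00192) and Sorcs2 (1.81) higher and Tnmd (−2.24, edgeR adjusted p = 0.00115) lower among them.

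**Figure D5:**
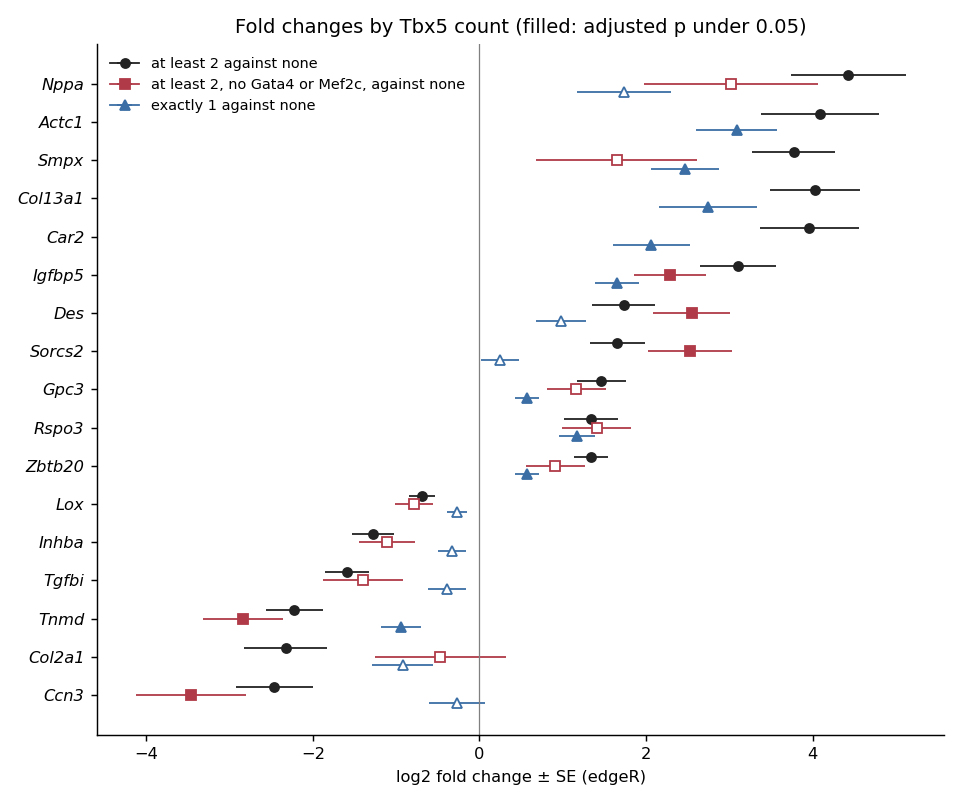
Log2 fold change with its standard error for 17 genes in 3 comparisons, all against matched cells with 0 counts of Tbx5, Gata4 and Mef2c: cells with at least 2 Tbx5 counts, those of them without Gata4 and Mef2c counts, and cells with exactly 1 Tbx5 count; filled points passed an adjusted p under 0.05, and genes with 0 counts in a group are not drawn. Igfbp5 is filled in all 3, at 3.10, 2.29 and 1.65. Standard errors were derived from the F statistic of the test.

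Cells with exactly 1 Tbx5 count serve as a comparison outside the threshold. They were matched with 330 other cells with 0 counts of the 3 genes in 35 libraries (median totals 12884 and 12815.5 counts). None of these was a matched cell of the first comparison, while those of the other settings above were not kept apart. Of 13296 genes tested 89 differed (0.669%), 81 higher (0.609%) and 8 lower (0.0602%) by edgeR. Of these, 31 were also among the 85 genes at 2 or more counts, which is 34.8% of the 89 and 36.5% of the 85. All 31 had the same direction, 28 higher and 3 lower. Igfbp5 had 3840 counts in 213 cells against 1504 in 143, and was higher in 28 libraries and lower in 7 (1.65 ± 0.26, edgeR adjusted p = 0.00011). Gpc3 was at 0.57 ± 0.15 (edgeR adjusted p = 0.046) and Zbtb20 at 0.57 ± 0.14 (edgeR adjusted p = 0.041). Tnmd was at −0.94 ± 0.24 (edgeR adjusted p = 0.042), lower in 25 libraries and higher in 10.

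Some muscle genes also differed in cells with 1 Tbx5 count. Of 23 cardiomyocyte genes tested 8 were higher and of 23 skeletal muscle genes 11, with 0 lower in either, beside 0.609% of all genes higher. In these lists 8 and 10 genes had fewer than 10 counts in the matched cells and were tested mainly through the cells with Tbx5. Of the remaining 15 and 13, 7 and 7 were higher, beside 63 of 12949 among all genes with at least 10 such counts. Tnnt2 was at 1.73 ± 0.29 (edgeR adjusted p = 0.00018), Smpx at 2.47 ± 0.41 (edgeR adjusted p = 0.00028) and Actc1 at 3.09 ± 0.49 (edgeR adjusted p = 0.00012). Myl1 was at 3.93 ± 0.51 with 85.5% of its counts in 1 cell. Several genes called at 2 or more counts did not pass here: Nppa (1.73 ± 0.57, edgeR adjusted p = 0.20), Des (0.98, adjusted p = 0.15), Sorcs2 (0.25, adjusted p = 0.92), Tgfbi (−0.39, adjusted p = 0.73) and Ccn3 (−0.27, adjusted p = 0.96). Zic1, a zinc finger factor, was lower (−1.68 ± 0.29, edgeR adjusted p = 0.000341). When the cells with 1 Tbx5 count were also required to lack Gata4 and Mef2c, a setting chosen after seeing the data, the calls went from 89 to 15. They were 40 without cells with those muscle genes and 36 against a second set of matched cells.

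The difference between at least 2 counts and exactly 1 was then tested directly, in 105 pairs of 25 libraries. Of 12412 genes tested edgeR called 1 (0.00806%), and 419 had an unadjusted p under 0.05. The 1 gene was Myl7, an atrial myosin light chain, with 227 counts in 4 cells against 1 count in 1 cell and 86.3% of the counts in 1 cell (edgeR adjusted p = 0.0499). Igfbp5 was at 0.81 ± 0.40 and Tnmd at −0.83 ± 0.43, neither past the threshold, and Gpc3 was at 0.78 ± 0.20 (edgeR adjusted p = 0.57). Depth was less well matched here, with median totals of 26056 and 20162 counts and 44 pairs over 25% apart. With only the closer pairs, a setting chosen after seeing the data, 15 genes were called.

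Finally the other factors of the pool were compared between the 111 cells and cells of matched depth with 0 Tbx5 counts, whatever their Gata4 and Mef2c. The median cell held counts of 16 other factors in the cells with Tbx5 and of 15 in the matched ones. These matched cells were chosen by Tbx5 and depth alone, so Mef2c and Gata4 could be compared. Of 42 factors, 0 differed in the share of cells with a count at an adjusted p under 0.05, by a permutation test that flips the sign of each library's difference (100000 draws, two-sided). Mef2c was counted in 60 cells with Tbx5 (54.1%) and in 41 matched cells (36.9%), higher in 13 libraries and lower in 4 (permutation p = 0.00765, adjusted p = 0.120). Mef2b, a relative of Mef2c, was counted in 29 against 17 (permutation p = 0.00805), and Tbx2, another T-box gene, in 33 against 19 (permutation p = 0.00858). Gata4 was counted in 11 against 3 (permutation p = 0.11). Tbx3 was counted in 56 against 43 (permutation p = 0.405), but against a second set of matched cells in 56 against 27 (permutation p = 0.00109, adjusted p = 0.0458), the 1 factor that passed there. In that set Mef2c was counted in 60 against 44, Mef2b in 29 against 22 and Tbx2 in 33 against 17. Their unadjusted permutation p were 0.0738, 0.389 and 0.00979. With cells thinned to 5000 counts (109 pairs) Mef2c was counted in 19 against 11, Mef2b in 11 against 7 and Tbx2 in 9 against 6. There the unadjusted permutation p were 0.193, 0.229 and 0.803.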

How the data were processed

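The deposited files hold raw counts per gene and cell barcode for 37 Drop-seq libraries, without normalization by the authors. Per the submitters' processing notes, bcl2fastq 2.17.1.14, STAR 2.5.3a, UMI-tools, featureCounts 1.5.3 and build mm10 were used. The annotation release, strand setting, cell filter and treatment of reads with several matches are not given in the sources used here. Of 27998 Ensembl identifiers, 27645 matched a symbol.

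Of 8730 barcodes, 89 copies between libraries and 76 barcodes 1 base from a deeper one in the same library were removed. Doublets were not called; instead the deepest 5% of cells of each library were left out in 1 alternative. Each cell with Tbx5 was matched with the unused cell nearest in log total count in its library. Libraries with 1 such cell were left out, and counts were summed per library and group. Genes with at least 20 counts over the sums were tested with edgeR 4.0.16 (quasi-likelihood test, TMM scaling, library as block) on R 4.3.3, and p-values were adjusted by Benjamini and Hochberg over all genes tested. Every pair of sums shares its library, so the library block is part of the main design. CPM were computed from the sums without a pseudocount, and 1 CPM was added only for log2 values in figures. Where a group had 0 counts, a floor of 3 counts over the group gave the bound. Positions are from GENCODE M21. Shares were tested with NumPy 2.4.6 and SciPy 1.17.1.

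Cells, lists, tests and alternatives were chosen with earlier results of these data known. The genes named were the 12 highest and 12 lowest past the threshold with 1 sign in the 3 series, up to 4 called members per list, all members of the limb and Tbx5 lists, and, in the other comparisons, the 3 highest and 2 lowest, or every gene called where fewer than 24 passed; genes named outside this rule are said to be. Tnnt2, Upk3b, Wt1, Acta2 and Tagln, list members that did not pass, were also chosen after their values were seen. Tested on simulated data with 100 genes changed 2-fold and 100 changed 4-fold, all with at least 100 counts, the first comparison found 69 and 100 of them with 4 false calls. The simulation gave all genes the same relative spread and each change to every library. Its shares and false calls therefore do not carry over to genes with most counts in 1 cell. Alternatives were other size factors, DESeq2 1.42.0, other minimum counts and cells, other matched cells, subsets of libraries and cells, and each library left out in turn. The fits without 1 library kept the dispersion (spread between sums) trend of the full fit. The left-out library thus still entered their p-values through it. Some results that the rule names are not reported here.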

Additional observations from a re-analysis of the deposited data

How the results depend on the processing

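The count of 85 genes at 2 or more Tbx5 counts against none stayed within 1.5 times under RLE size factors, a minimum of 50 counts, other minimum numbers of cells, the removal of the deepest cells and close or thinned pairs (both chosen after seeing the data), with 61 to 84 of the calls among the 85. DESeq2 gave 64, but 29 higher and 35 lower where edgeR had 62 and 23, and 34 were among the 85. Left-out libraries gave between 69 (without technical replicate 4) and 100 calls (without technical replicate 14), at least 64 of them among the 85. It moved to 12 with matched cells of any Gata4 and Mef2c count, 22 with cells matched on both (chosen after seeing the data), 139 with a second set of matched cells, 145 with cells summed by series, 231 with a minimum of 1 count and 47 with at least 3 Tbx5 counts. Without the replicate block, which pairs the sums of a library, it was 281. Without cells with muscle regulators it was 34, and without cells with other factors (10 pairs) 17. Single series gave 34 (JD), 40 (PZ47-PZ48) and 42 (PZ58), and 52 came from the libraries with Rps27a of at least 100 CPM.

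For cells without Gata4 and Mef2c, the 15 calls moved to 8 with 3 cells per library, 8 with a minimum of 50 counts, 7 without the deepest cells and 6 without muscle regulators. For at least 2 counts against 1, the 1 call moved to 0 with 3 cells per library, a minimum of 50 counts, RLE or second matched cells, to 18 without the deepest cells and to 15 for close pairs. For 1 count against none, the 89 calls moved to 48 without the deepest cells, 40 without muscle regulators, 36 with second matched cells, 59 for close pairs and 15 without Gata4 and Mef2c. Of factor shares, 1 passed against second matched cells. Among single genes, Inhba (0.61), Zbtb20 (−0.22) and Cthrc1 (−0.44) changed direction without cells with other factors, and Col2a1 (0.0791) in PZ58 alone. Igfbp5 stayed higher and past the threshold in 22 of 23 alternatives (2.06 to 4.21). The cause of these shifts was not tested. Depth limits what can be seen: the median cell held 8553 counts, so a factor without a count may be present.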
